A study of Mus musculus with 4 samples.

Results

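The genes of the SMC complexes were read from 4 Mouse Gene 1.0 ST arrays of whole E15 cochleas, 2 from wild-type and 2 from *Meis2* mutant embryos. The set holds 10 genes, *Smc5*, *Smc6*, *Nsmce1*, *Nsmce2* and *Nsmce4a* of the SMC5/6 complex, *Smc1a*, *Smc3* and *Rad21* of cohesin, and *Smc2* and *Smc4* of condensin. They were taken by symbol, as every probe set whose only platform symbol is 1 of these names, which gave 10 probe sets, 1 per gene, of 35556 in all. The mutants were *Meis2* flox/flox; *Pax2* Cre/+ embryos, in which Cre under *Pax2* regulatory sequences works from the otic placode stage on. The control arrays are labelled wild type, with no allele given, and both groups are of the same age and tissue. Mesenchyme, otic capsule, vessels and blood of the cochlea do not descend from the otic placode, so the RNA of a mutant cochlea also comes from cells outside the Cre domain. The set was drawn up around *Nsmce2*, which the study had picked by setting genes that differed on these same arrays beside Meis2 binding peaks from another experiment, not analysed here, and with the differences between the genotypes known. The values of the members below are therefore a description of these arrays and not a test.

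SMC proteins are long ATPases that pair through a hinge, and a kleisin subunit closes each pair into a ring that can hold or extrude DNA. Cohesin holds sister chromatids together and forms chromatin loops, condensin compacts mitotic chromosomes, and the SMC5/6 complex acts in recombination, replication and DNA repair. All are needed in dividing cells, such as those of growing epithelium and mesenchyme, and cohesin also serves gene regulation in cells that no longer divide, such as neurons and hair cells.

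Signals are log2 values that the authors computed with robust microarray analysis (RMA), and every difference is mutant minus wild type on that scale, so that -1 is a decrease by 2-fold. Differences, standard errors and confidence intervals come from limma, which fits each probe set by itself and borrows strength for its variance from the others. Its p-values were adjusted by the Benjamini-Hochberg method over all 35556, and a probe set passed at an adjusted p of 0.05. Neither the labels nor the methods say whether arrays of one genotype came from separate animals, so errors and p-values measure only the spread between these arrays. The median difference over all probe sets was 0.11, and 0.03 after each array was centered on a common median. The *Meis2* probe set itself had signals of 9.64 and 9.38 in wild type, against 9.61 and 9.80 in mutants. These overlap, with a difference of 0.19 (95% confidence interval -0.14 to 0.53), so the arrays showed no decrease of the targeted gene. Where the probes lie relative to the floxed exons was not determined here, and the mutant arrays are called so by their labels. *Xist*, the RNA of the inactive X chromosome, was at 5.54 in wild-type replicate 2 and at 11.51 to 11.84 on the other 3 arrays. The Y-linked *Eif2s3y* had 8.76 and 7.77 on the wild-type arrays, but 4.68 and 4.88 on the mutant arrays, so the genotypes also differed in Y-linked signal. Wild-type replicate 3 thus had high signal of both *Xist* and *Eif2s3y*.

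Most members had less signal in mutant cochleas. Of the 10 genes, 8 were lower past the adjusted threshold of limma, beside 15.7 percent of all probe sets, and none was higher, beside 21.6 percent. Both mutant arrays lay below both wild-type arrays for 9 of the 10, beside 26.4 percent of all probe sets. All 6 SMC ATPases were among the lower genes, and the 2 that did not pass were *Nsmce1* and *Rad21*. The median difference of the members was -0.90, and the differences ran from -1.78 for *Smc3* to 0.11 for *Nsmce1*. A decrease of 2-fold or more was found for 4 members, *Smc3*, *Smc4*, *Smc6* and *Nsmce2*, beside 4.6 percent of all probe sets. No member had both mutant arrays above both wild-type arrays, a pattern of 49.7 percent of all probe sets. The members were bright, with mean signals of 8.27 to 11.48. Among the 9591 probe sets in that range of signal, 29.4 percent were lower and 27.3 percent higher past the threshold, and the median difference was -0.01. The shares above for arrays that did not overlap and for 2-fold decreases are over all probe sets, most of them dimmer than the members. Decreases of 2-fold or more were more frequent in the members' range of signal than over all probe sets.

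The share of all probe sets that passed moved with the processing, so each count of members is given beside it. The same 8 members were lower with a trended prior (16.0 percent of all probe sets lower and 21.4 percent higher), after centering of the array medians (18.1 and 14.2), after repeated quantile normalization (15.5 and 17.1), without the dimmest 25 percent of probe sets (20.7 and 27.3), with 1-symbol probe sets only (20.5 and 30.4) and at an adjusted p of 0.1 (19.2 and 30.7). Without wild-type replicate 2 or 3, 7 members were lower (15.3 and 13.1 percent of all probe sets, with 15.4 and 14.3 percent higher). Without *Meis2* mutant replicate 1 it was 6 (9.15 percent lower and 7.2 percent higher), and without replicate 2 it was 7 (7.35 and 5.62). SAM, or significance analysis of microarrays, the test that the methods name, called 9 lower (25.8 and 50.0). None of these fits called a member higher. The members were chosen with this contrast known, so nothing is read from these counts.

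**Figure D1:**
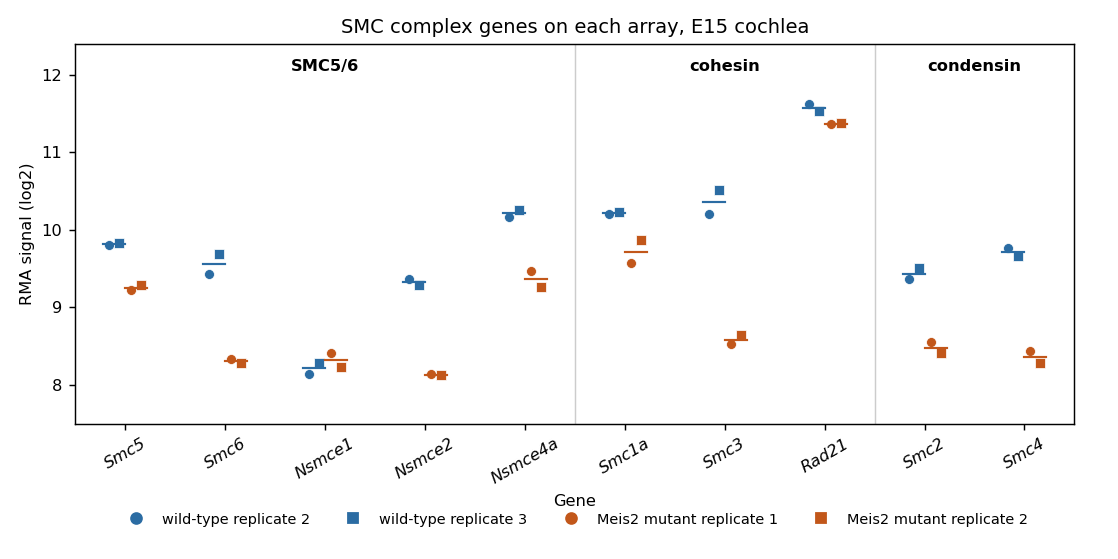
RMA signal on the log2 scale (y axis) of the 10 SMC complex genes (x axis) on each of the 4 arrays, with points for single arrays and horizontal lines for the mean of each genotype (n = 2). The mutant points lie below the wild-type points for 9 genes and overlap with them for *Nsmce1*, and levels of different genes are not comparable because each is read by its own probes.

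In the SMC5/6 complex, 4 of 5 members were lower in mutants. *Nsmce2* encodes the SUMO ligase of the complex, which attaches the small modifier SUMO to chromatin proteins. It was at 9.36 and 9.29 on the wild-type arrays and at 8.14 and 8.13 on the mutant arrays. The arrays of one genotype thus lay close together and the genotypes far apart, with a difference of -1.19 (standard error 0.08, 95% confidence interval -1.40 to -0.99), or 2.29-fold. *Smc6*, an ATPase of the complex, had 9.43 and 9.69 in wild type and 8.33 and 8.28 in mutants. Its difference of -1.25 (standard error 0.12) came close to that of *Nsmce2*, with more spread between the wild-type arrays. Its partner *Smc5*, with which it forms the core of the complex, had 9.81 and 9.82 in wild type and 9.22 and 9.29 in mutants. The groups of *Smc5* did not overlap and its difference was -0.56 (standard error 0.08). With only 1 mutant array kept, *Smc5* missed the threshold (adjusted p = 0.0552 from limma without replicate 1 and 0.0509 without replicate 2). *Nsmce4a*, the kleisin that bridges the ATPase heads, had 10.17 and 10.26 in wild type and 9.47 and 9.27 in mutants. Its difference was -0.85 (standard error 0.10, 95% confidence interval -1.12 to -0.58). *Nsmce1*, a RING protein of the complex with ubiquitin ligase activity, had 8.14 and 8.29 in wild type and 8.41 and 8.23 in mutants. These values overlap, and the difference of 0.11 (95% confidence interval -0.17 to 0.38) leaves room for a small change either way.

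In cohesin, the members were less alike. *Smc3*, an ATPase of the ring, had 10.21 and 10.51 in wild type and 8.52 and 8.64 in mutants. This was the largest difference among the 10 members, -1.78 (standard error 0.13, 95% confidence interval -2.11 to -1.44) or 3.43-fold, and 0.675 percent of all probe sets lay at or below it. *Smc1a*, the other ATPase of the ring, had 10.20 and 10.24 in wild type and 9.57 and 9.87 in mutants. Here the mutant arrays were further apart than the wild-type arrays, and the difference was -0.50 (standard error 0.12). *Smc1a* missed the threshold without wild-type replicate 2 (adjusted p = 0.0743 from limma), without wild-type replicate 3 (0.088) and when *Meis2* mutant replicate 1 was left out (0.115). *Smc1a* is X-linked. Both wild-type arrays had more signal of the Y-linked *Eif2s3y* (8.76 and 7.77) than both mutant arrays (4.68 and 4.88). Y-linked signal thus ran along with genotype. *Xist* did not, as it was at 5.54 in wild-type replicate 2 but at 11.51 in wild-type replicate 3, near the mutant arrays (11.83 and 11.84). The part of sex-linked differences in *Smc1a* was not tested and cannot be told apart. *Rad21*, the kleisin that closes the ring, had 11.62 and 11.54 in wild type and 11.37 and 11.38 in mutants. Its groups did not overlap, but the difference of -0.21 (95% confidence interval -0.42 to 0.00) did not pass the adjusted threshold of limma. SAM placed it among its lower calls, which took in 25.8 percent of all probe sets, with 50.0 percent called higher.

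Both condensin ATPases were lower in mutants, and they form the pair on which both condensin complexes are built. *Smc4* had 9.77 and 9.67 in wild type and 8.44 and 8.28 in mutants. Its difference was -1.36 (standard error 0.10, 95% confidence interval -1.61 to -1.11), or 2.56-fold. *Smc2* had 9.36 and 9.51 in wild type and 8.55 and 8.41 in mutants. The groups were again apart, with a difference of -0.96 (standard error 0.10) or 1.94-fold.

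**Figure D2:**
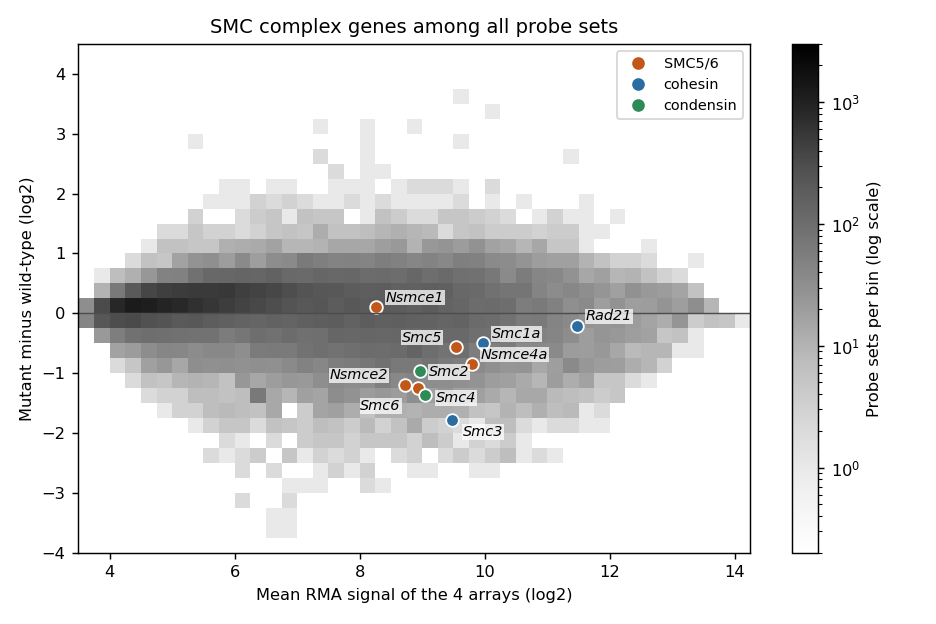
Log2 difference, mutant minus wild type, (y axis) against the mean signal of the 4 arrays (x axis), with all 35556 probe sets as gray bins shaded by their number on a log scale and the SMC complex genes as colored points. The points lie at mean signals of 8.27 to 11.48, with *Smc3* lowest at -1.78 and *Nsmce1* and *Rad21* nearest to 0.

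The differences between genotypes were also set against each other within a complex. Differences between 2 genes on the same array are free of a shift common to that whole array, and are given here relative to their wild-type mean. They are not free of a normalization that depends on signal. Repeated quantile normalization moved the difference between genotypes from -0.21 to -0.07 for *Rad21* and from -1.78 to -1.72 for *Smc3*. For *Smc3* against *Smc1a* the mutant arrays were at -1.19 and -1.37, with the wild-type arrays 0.14 either side of 0. *Smc3* therefore had lost more signal than its ATPase partner on both mutant arrays. For *Smc3* against *Rad21* the mutant arrays were at -1.63 and -1.51 (wild type 0.20 either side), and for *Smc6* against *Smc5* at -0.64 and -0.75 (0.13 either side). For *Nsmce2* against *Nsmce1* they were at -1.38 and -1.21 (0.11 either side). The condensin ATPases were closer, since *Smc4* against *Smc2* was at -0.39 and -0.41 (0.12 either side). With 2 arrays in each genotype an exact permutation test cannot reach the threshold, and the pairs were chosen with these values known, so no test is given. The gene with the larger decrease is written first in each pair, which fixes the sign of all 5.

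**Figure D3:**
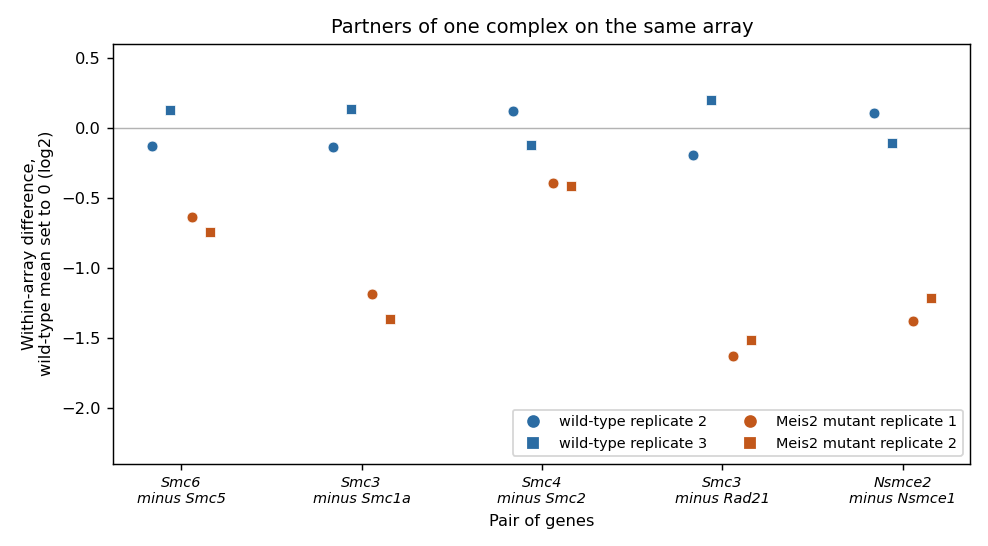
Difference in log2 signal between 2 genes of one complex on the same array, with the wild-type mean of each pair set to 0 (y axis), for 5 pairs (x axis), where each point is 1 array. The gene with the larger decrease comes first in each pair, so the mutant arrays lie below 0 by construction, and the size runs from -0.40 for *Smc4* against *Smc2* to -1.57 for *Smc3* against *Rad21*.

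The stretches of 250 bases before the annotated transcription starts were searched for short motifs, because most members were lower together and the mutants were made to lose a transcription factor. RefSeq promoter windows (build GRCm38.p6) were at hand for 7 members, with 8 windows in all since *Nsmce1* has 2. There was no window for *Nsmce2*, *Rad21* and *Smc4*, so the promoters of these members were not searched. The direct Meis motif TGACAG was in none of the 8 windows on either strand, and in 15.9 percent of all 32851 windows of the same length. The motif of Pbx-Hox type, AGATNNAT or TGATNNAT, was in 1 of the 8 windows, that of *Nsmce4a*, and in 14.3 percent of all windows. The cell cycle motif TTTGAA, known from promoters of genes of late cell cycle phases, was in 2 of the 8, those of *Smc6* and *Smc2*, and in 16.0 percent of all windows. Both of these matches read TTCAAA on the strand of the gene. Matches of letters are not binding sites, and a window without them says nothing about distant elements. The windows below are those with a match, that of *Smc3* as the member with the largest difference, and the more GC-rich of the 2 windows of *Nsmce1*, the member with no decrease. All end at the base before the start and read from 5′ to 3′ on the strand of the gene, with capitals for the matches.
*Nsmce4a* (chr7:130547382-130547631, minus strand): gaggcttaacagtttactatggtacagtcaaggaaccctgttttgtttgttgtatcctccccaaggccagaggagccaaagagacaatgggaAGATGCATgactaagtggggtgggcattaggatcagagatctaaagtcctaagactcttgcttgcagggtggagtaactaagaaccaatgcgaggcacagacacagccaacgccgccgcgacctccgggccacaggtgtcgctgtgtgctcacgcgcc
*Smc6* (chr12:11265636-11265885, plus strand): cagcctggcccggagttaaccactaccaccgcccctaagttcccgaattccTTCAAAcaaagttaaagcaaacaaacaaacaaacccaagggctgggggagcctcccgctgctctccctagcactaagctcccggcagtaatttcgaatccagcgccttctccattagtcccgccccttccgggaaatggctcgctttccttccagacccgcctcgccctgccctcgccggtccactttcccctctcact
*Smc2* (chr4:52438971-52439220, plus strand): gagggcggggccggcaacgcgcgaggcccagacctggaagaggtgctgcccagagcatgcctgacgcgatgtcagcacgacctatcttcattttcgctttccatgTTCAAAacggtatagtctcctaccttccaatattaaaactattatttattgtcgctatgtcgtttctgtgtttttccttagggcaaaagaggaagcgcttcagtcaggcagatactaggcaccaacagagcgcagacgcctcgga
*Smc3* (chr19:53600146-53600395, plus strand): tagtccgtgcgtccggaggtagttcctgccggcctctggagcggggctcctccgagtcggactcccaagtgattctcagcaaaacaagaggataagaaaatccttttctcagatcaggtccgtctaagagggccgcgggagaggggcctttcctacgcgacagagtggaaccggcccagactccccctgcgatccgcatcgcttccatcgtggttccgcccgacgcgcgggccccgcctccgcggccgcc
*Nsmce1* (chr7:125491444-125491693, minus strand): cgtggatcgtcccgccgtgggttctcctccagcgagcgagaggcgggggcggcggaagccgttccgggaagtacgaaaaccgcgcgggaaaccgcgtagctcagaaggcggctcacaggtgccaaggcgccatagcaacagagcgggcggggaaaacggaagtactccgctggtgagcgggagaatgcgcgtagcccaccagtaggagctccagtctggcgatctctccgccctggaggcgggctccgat
The match in *Nsmce4a* spans bases 158 to 151 before the start, that in *Smc6* bases 199 to 194 and that in *Smc2* bases 145 to 140. The GC content was 53.2 percent for *Nsmce4a*, 58.0 percent for *Smc6*, 51.6 percent for *Smc2*, 64.4 percent for *Smc3* and 66.8 percent for *Nsmce1*, with a median of 52.4 percent over all windows. The window of *Smc3* holds 26 CpG dinucleotides and the printed window of *Nsmce1* holds 30, against a median of 6. The other window of *Nsmce1* has 37.6 percent GC and 0 CpG dinucleotides.

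To place the members among the other parts of their machinery, 31 partners and regulators were read at the brightest probe set of each gene. Of these, 17 were lower and 5 higher past the adjusted threshold of limma and 9 did not pass. Over all 19938 genes read in this way, 16.2 percent were lower and 24.2 percent higher. The median difference of the 31 genes was -0.35. The 17 lower and 5 higher partners kept their direction whichever array was left out. Fewer partners passed in each of these fits, but fewer of all probe sets passed too, so the loss is not particular to the partners.

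Of 5 SMC5/6 partners, 3 were lower and 1 was higher. *Slf1*, which with *Slf2* brings the complex to damaged DNA, had 7.52 and 7.87 in wild type and 5.84 and 5.90 in mutants, so that it differed by -1.82 (standard error 0.14) at an adjusted p of 0.00296 from limma. Its other probe set was also lower, by a smaller amount (-0.72, adjusted p = 0.00511 from limma). *Slf2* differed by -0.89 and -0.90 at its 2 probe sets (adjusted p = 0.00653 and 0.00443 from limma). *Simc1*, another partner of *Slf2* in binding the complex, rose from 8.46 and 8.47 to 8.99 and 8.84 (difference 0.45, adjusted p = 0.0199 from limma). *Eid3*, a relative of *Nsmce4a*, was dim and fell by 0.35 (adjusted p = 0.0434 from limma). The calls of *Simc1* and *Eid3* ended whichever array was left out (adjusted p = 0.0544 to 0.102 and 0.0747 to 0.198 from limma). *Nsmce3*, the MAGE protein that binds *Nsmce1*, had 8.17 and 8.28 in wild type and 8.32 and 8.24 in mutants, with a difference of 0.05 (95% confidence interval -0.17 to 0.28) that turned to -0.03 after median scaling. Neither *Nsmce1* nor *Nsmce3*, which bind each other, thus passed the threshold, while the ATPases, the kleisin and the SUMO ligase did.

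Of 16 partners and regulators of cohesin, 12 were lower, 1 was higher and 3 did not pass. The subunits *Stag1* and *Stag2* take the same place on the ring in different cohesin complexes. *Stag2* had 9.43 and 9.47 in wild type and 8.55 and 8.54 in mutants, so that it differed by -0.91 (standard error 0.08) at an adjusted p of 0.0034 from limma. *Stag1* had 9.50 and 9.40 in wild type and 9.39 and 9.43 in mutants, with a difference of -0.04 (95% confidence interval -0.26 to 0.18) that turned to 0.02 after repeated quantile normalization and to 0.01 without wild-type replicate 2. Of the loader of cohesin, *Nipbl* fell by 0.89 (adjusted p = 0.00469 from limma), whereas *Mau2* had 10.21 and 9.86 in wild type and 10.36 and 10.28 in mutants (adjusted p = 0.157, and 0.0396 without wild-type replicate 2, both from limma).
*Wapl*, which opens the ring, fell by 0.81 (adjusted p = 0.00895 from limma). *Pds5b* and *Pds5a*, with which it acts, fell by 0.63 and 0.30. *Esco1* and *Esco2*, which acetylate *Smc3* protein and so stabilize cohesion, fell by 0.63 and 1.03 (adjusted p = 0.00725 and 0.00693 from limma). The other probe set of *Esco1* fell by more (1.04, adjusted p = 0.00452 from limma). *Hdac8*, which removes this mark, fell by 0.68. *Cdca5*, or sororin, which counters *Wapl*, fell by 0.51. *Ctcf*, the DNA-binding protein at which loops of cohesin stop, had 9.79 and 9.77 in wild type and 8.97 and 8.91 in mutants, a difference of -0.84 (adjusted p = 0.00392 from limma). The shugoshins *Sgo1* and *Sgo2a*, which protect cohesin at centromeres, fell by 0.99 and 0.55.
The exception was *Espl1*, or separase, the protease that cuts *Rad21* protein at anaphase, which rose from 8.10 and 8.02 to 8.78 and 8.71 (difference 0.69, standard error 0.08, adjusted p = 0.00597 from limma). *Pttg1*, or securin, which holds separase inactive, had a difference of 0.16 (adjusted p = 0.234 from limma). The call of *Pds5a* ended whichever array was left out and after repeated quantile normalization (adjusted p = 0.0977 from limma). Those of *Sgo2a* (adjusted p up to 0.0733 from limma) and *Cdca5* (up to 0.132) ended without either mutant array and, for *Cdca5*, without wild-type replicate 3. Those of *Pds5b* and *Hdac8* ended without *Meis2* mutant replicate 2 (adjusted p = 0.0635 and 0.0504 from limma). *Stag2* and *Hdac8* are X-linked, like *Smc1a*.

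Condensin genes did not all go the same way. The ATPases *Smc2* and *Smc4* were lower, but of the 6 other subunits 2 were higher, 2 were lower and 2 did not pass. With 24.2 percent of all genes higher and 16.2 percent lower, these counts are not read as a result about condensin. *Ncapd2*, a HEAT-repeat subunit of condensin I, had 9.23 and 9.22 in wild type and 10.32 and 10.34 in mutants, which was a rise by 1.10 (standard error 0.08, adjusted p = 0.00279 from limma) or 2.15-fold. Of the 6 subunits it had the largest difference in either direction. *Ncapd3*, its counterpart in condensin II, had 9.41 and 9.05 in wild type and 9.75 and 9.78 in mutants (difference 0.54, adjusted p = 0.0361 from limma). This call ended after median scaling (adjusted p = 0.0664 from limma), without wild-type replicate 3 (0.0622) and with only 1 mutant array kept (0.121 without replicate 1 and 0.141 without replicate 2). The other HEAT-repeat subunits went the opposite way. *Ncapg* of condensin I fell by 0.61 (adjusted p = 0.0167 from limma) and *Ncapg2* of condensin II fell by 0.41 (adjusted p = 0.0244 from limma). The call of *Ncapg* ended without wild-type replicate 3 (adjusted p = 0.0532 from limma) or *Meis2* mutant replicate 2 (0.0813), and that of *Ncapg2* ended whichever array was left out (adjusted p = 0.0566 to 0.131 from limma). The kleisins did not pass, with differences of -0.19 for *Ncaph* and 0.29 for *Ncaph2* (adjusted p = 0.195 and 0.0607 from limma). *Ncaph2* passed as higher after repeated quantile normalization (adjusted p = 0.0274 from limma), with 1-symbol probe sets only (0.0351), with the probe sets of each gene averaged (0.0335), by SAM and at a threshold of 0.1.

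**Figure D4:**
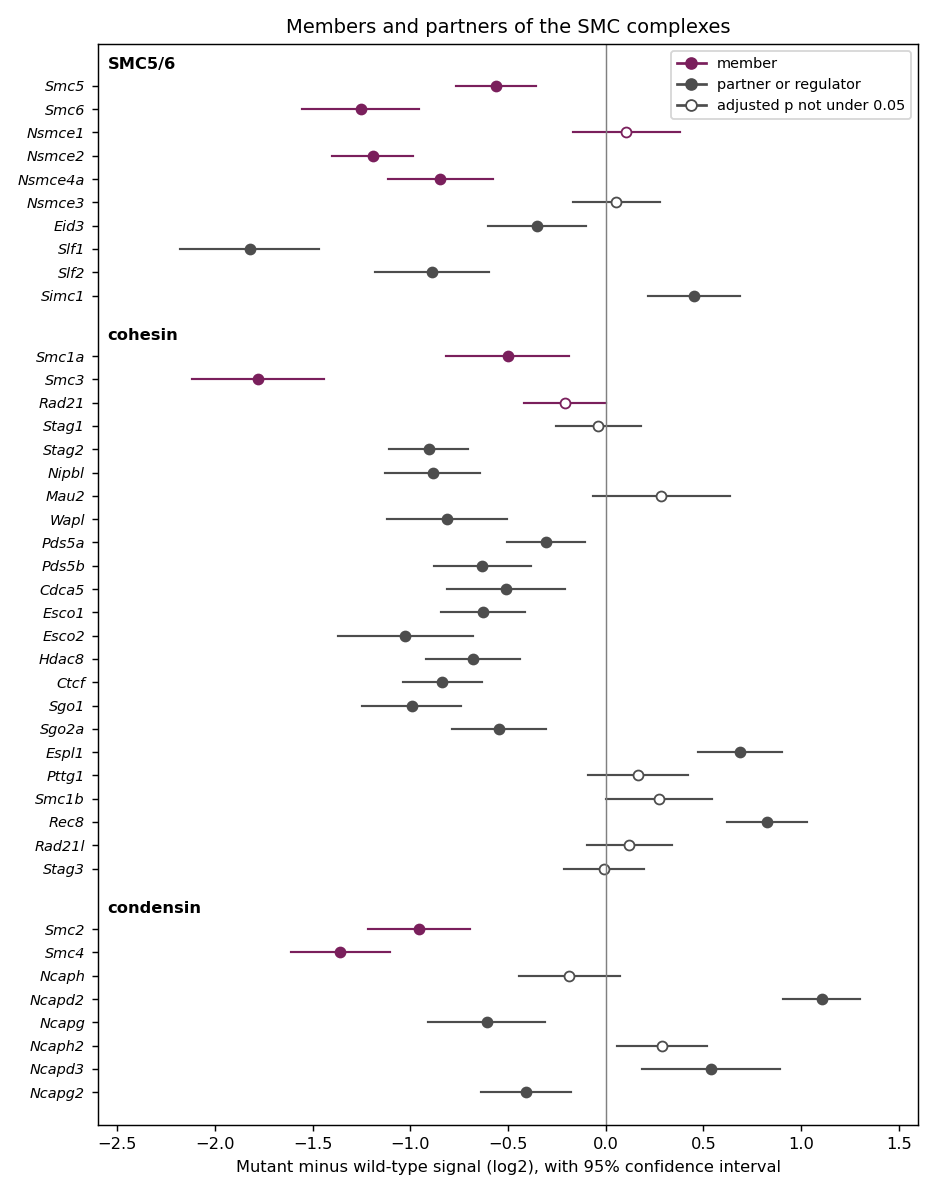
Log2 difference, mutant minus wild type, (x axis) with its 95% confidence interval from limma (bars, n = 2 arrays in each genotype) for each gene (y axis), for the members in purple and their partners and regulators in gray, where filled points passed the adjusted threshold. Most cohesin genes lie left of 0, *Espl1* (0.69) and *Rec8* (0.83) lie to the right as filled points and *Mau2*, *Smc1b*, *Pttg1* and *Rad21l* as open points, and the condensin genes lie on both sides, from *Smc4* (-1.36) to *Ncapd2* (1.10).

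Cohesin subunits of germ cells were near the low end of the signals, apart from *Stag3*, which lay at the middle. *Smc1b*, the meiotic relative of *Smc1a*, had 4.92 and 5.07 in wild type and 5.35 and 5.18 in mutants (adjusted p = 0.0971 from limma), and *Rad21l* stayed between 4.31 and 4.51 at its brighter probe set. *Rec8*, the meiotic kleisin, rose from 5.49 and 5.43 to 6.28 and 6.29 (difference 0.83, adjusted p = 0.00398 from limma), and its signal remained dim, at a percentile of 37.6 of all probe sets. *Stag3* had a difference of -0.01 that turned to 0.02 without wild-type replicate 2. Of these 4 genes 1 was higher and none was lower past the threshold. Over all genes at the brightest probe set, 24.2 percent were higher and 16.2 percent lower. A count of this size therefore says nothing about these genes.

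Markers of dividing cells and of cell types were read beside these results. Over all 19938 genes at the brightest probe set, 16.2 percent were lower and 24.2 percent higher. Counts near these shares say nothing about a cell type. Of 19 measured genes of cycling cells, 7 were lower and 2 higher, with a median difference of -0.23. Their summed signal on the linear scale was 22175 and 22258 in wild type and 19735 and 18532 in mutants. *Mki67* and *Top2a*, which mark dividing cells, each fell by 0.83 (adjusted p = 0.00477 and 0.00503 from limma), whereas the replication helicase gene *Mcm5* and the mitotic kinase gene *Plk1* rose by 0.66 and 0.77 (adjusted p = 0.00572 and 0.00473 from limma). Duct epithelium had 3 of 11 markers lower and 2 higher (summed signal 17355 to 18681 in wild type and 16972 to 18089 in mutants). Hair cells had 1 of 5 in each direction (1320 to 1502 and 1321 to 1429). Markers of spiral ganglion neurons were lower in 6 of 8 (8696 to 9068 and 4061 to 4359) and of glia in 2 of 4, with 1 higher (8732 to 9808 and 5045 to 5264). In skeletal muscle 6 of 8 were higher (695 to 871 and 1264 to 1981), and in the erythroid list 3 of 5 were higher and 1 lower (1317 to 1565 and 1898 to 2358). In periotic mesenchyme 1 of 6 was higher and 1 lower (13771 to 15168 and 16668 to 19382), and in cartilage 2 of 5 were higher (22460 to 24384 and 27156 to 28039). Summed signals weigh the brightest genes most. The median difference of the mesenchyme markers was -0.05, with *Col1a1*, the higher one, at 1.26 and *Twist1*, the lower one, at -0.70. In endothelium 1 of 5 was higher (3550 to 3657 and 3724 to 3879), and of 6 macrophage markers 1 was lower (1289 to 1816 and 1236 to 1312). RMA gives no value of 0, and no marker can be called absent. The part of cycling cells and cell composition in the differences of the SMC genes was not tested. In whole cochleas, fewer cells of a type and less RNA per cell cannot be told apart.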

How the data were processed

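Whole E15 cochleas were profiled on 4 Affymetrix arrays. The values used are log2 signals as deposited by the authors, who ran RMA (background correction, normalization across arrays and a summary over the probes of a set). Per the submitters' notes the build was mm8, and no version is given in the sources used here. Scanner files were not analysed here. Genotypes came from the sample labels, and array numbers from the sample titles.

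All 35556 probe sets were fitted with limma 3.58.1 (lmFit and eBayes, no covariate or filter) in R 4.3.3, with Benjamini-Hochberg adjustment. The methods name SAM, which 6 relabelings of 4 arrays support poorly, so that it served as an alternative. As run here SAM called 26962 probe sets, and both it and limma called far more than the transcripts that the study reported as different. The study reported most of its transcripts as lower in mutants. Here more probe sets were higher than lower in the main limma fit and by SAM (25.8 percent lower and 50.0 percent higher). After median scaling it was the reverse (18.1 and 14.2 percent). Genes were named through the platform annotation, and a gene with several probe sets was read at the brightest. The members, partner and marker lists and motifs were chosen with earlier results of these data known. The text names every member and every partner, and other genes only where a result turns on them. The alternatives were SAM, a trended prior, median scaling, repeated quantile normalization, leaving out the dimmest 25 percent of probe sets, probe sets with 1 symbol only, a threshold of 0.1, averaging the probe sets of each gene and leaving out each array. The number of arrays limits the precision, with 2 residual and 2.91 prior degrees of freedom. Simulated arrays of this design (35556 probe sets) had only a small part of the probe sets changed. On these, limma recovered 35 percent of changes of 1 and 80 percent of changes of 2 on the log2 scale. On the real arrays far more passed (15.7 percent lower and 21.6 percent higher), which loosens the adjusted threshold. The simulated shares therefore do not say how many changes were missed here. Promoter windows were searched on both strands in Python 3.11.15, over the 250 bases before each start.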

Additional observations from a re-analysis of the deposited data

How the results depend on the processing

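The 8 lower and 0 higher members were found with a trended prior, median scaling, repeated quantile normalization, without the dimmest 25 percent of probe sets, with 1-symbol probe sets only and at a threshold of 0.1. SAM called 9 lower and 0 higher, beside 25.8 percent of all probe sets lower and 50.0 percent higher. Leaving out each array in turn gave 6 to 7 lower members and 0 higher, since *Smc1a* and *Smc5* missed the threshold in some of these fits. No member changed direction under any of these alternatives. Among the 31 partners, the lower count of 17 ranged from 9 to 14 and the higher count of 5 from 3 to 5 when an array was left out, and SAM gave 10 higher. Directions turned for 3 partners that did not pass the threshold in either fit, *Nsmce3* (-0.0296 after median scaling), *Stag1* (0.0231 after repeated quantile normalization, and -0.0881 to 0.0118 when an array was left out) and *Stag3* (-0.0436 to 0.0242 when an array was left out). Of the partners, 28 were left without the dimmest 25 percent, which takes out *Eid3*, *Smc1b* and *Rad21l*. When an array is left out, the lone array of its genotype is assumed to vary like the others. The causes of these losses were not tested. No paired analysis was possible because the genotypes share only 1 array number.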
